A study of Mus musculus with 18 samples.

Results

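The vacuolar proton pump (V-ATPase) and a set of genes that mark acid-secreting intercalated cells were examined in RNA sequencing of mpkCCD cells, an immortalised mouse line from the cortical collecting duct of the kidney. The 32 genes were chosen by name from 24111 genes in the count table. The rule uses no measured value, but the genes were chosen with earlier results of these data known. Of the 32, 25 encode pump subunits and 7 encode intercalated cell transporters or the factor Foxi1. Of the subunits, 4 are described as kidney-specific (Atp6v0a4, Atp6v1b1, Atp6v0d2 and Atp6v1g3), 19 are other core subunits and 2 are accessory proteins. The dDAVP group held 9 libraries from cells given 0.1 nM dDAVP for 24 h, and the control group held 9 libraries from cells left untreated. dDAVP (desmopressin) is a vasopressin analogue that acts on the V2 receptor. Cells of both groups came from the subline written mpkCCD11 in the labels, were grown to confluence on permeable supports, and were kept without serum for 24 h before the treatment period. Libraries were numbered 1 to 9 in each group, and the sets 1 to 3, 4 to 6 and 7 to 9 were also compared separately. The labels do not say that libraries came from separate cultures, so every p-value below measures only the spread between these libraries.

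The V-ATPase is a rotary machine with a cytoplasmic V1 sector, which hydrolyses ATP, and a V0 sector in the membrane, which carries protons. Every cell uses it to acidify lysosomes and endosomes, while intercalated cells of the collecting duct also place it in the plasma membrane to secrete acid into urine. Several subunits exist as isoforms. The isoforms a4 and B1, encoded by Atp6v0a4 and Atp6v1b1, are those that intercalated cells use, and loss of either causes distal renal tubular acidosis in humans. Principal cells, the cell type that mpkCCD cells resemble, respond to vasopressin by raising aquaporin-2.

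Counted reads ranged between 22.2 and 105.9 M per library. A library with 0 counts of a gene could by counting error alone have held 3, which is 0.0283 to 0.135 counts per M counted reads (CPM). Aqp2, the vasopressin-sensitive water channel gene used to check the treatment labels, had normalised CPM of 1050, 2640 and 2420 in dDAVP libraries 1 to 3, against 20.5, 23.1 and 27.9 in control libraries 1 to 3. The groups were also apart in libraries 4 to 6, with 992, 1100 and 162 CPM with dDAVP and 48.2, 27.3 and 46.2 CPM in control. They overlapped in libraries 7 to 9, with 2760, 174 and 192 CPM with dDAVP and 10.8, 37.2 and 251 CPM in control, though not in the authors' FPKM, with 374 to 2540 with dDAVP and 17.8 to 205 in control. All 4 epithelial markers and 7 of 13 principal cell markers had a median of at least 1 FPKM (reads scaled by gene length and library total), against 3 of 14 intercalated cell markers (Atp6v1b1, Car2 and Car15) and 0 of 6 proximal tubule markers. Of 4 endothelial markers, 3 were at 0 in every library. Of 6 macrophage and osteoclast markers, 2 (Cd68 and Acp5) had a median of at least 1 FPKM, while Ptprc, Emr1 and Ctsk had 2, 1 and 3 counts in all. These 6 summed to at most 5.27 FPKM in libraries 1 to 3. In libraries 7 to 9 they summed to 23.5 to 53.5 FPKM with dDAVP and 8.65 to 31.7 FPKM in control. Their part in the values of Tcirg1 and Atp6v0d2, isoforms also found in osteoclasts, was not tested. Markers of 2 neighbouring nephron segments, the thick ascending limb and the distal convoluted tubule (3 genes each), had no marker with a median of at least 1 FPKM, but were not at 0 in every library. The thick ascending limb markers summed to 0.0173, 9.34 and 8.91 FPKM in dDAVP libraries 1 to 3 and to 0 in each of control libraries 1 to 3. The distal convoluted tubule markers summed to 0, 3.07 and 2.83 FPKM in dDAVP libraries 1 to 3, against at most 0.013 FPKM in control libraries 1 to 3. Libraries 1 to 3 resembled each other most: the median SD of the tested pump and intercalated cell genes, on a log2(CPM + 1) scale, was 0.36 in dDAVP and 0.21 in control libraries 1 to 3, 0.65 and 0.66 in libraries 4 to 6, and 0.78 and 0.79 in libraries 7 to 9. Over all 10121 genes tested, the same medians were 0.32 and 0.22, 0.81 and 0.51, and 0.72 and 0.83.

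The most abundant pump transcripts in these cells came from genes of subunits that all cells use. By median FPKM over the 18 libraries the highest subunit transcripts were Atp6v1f (subunit F of the central stalk, 305 FPKM), Atp6v0b (c'' of the proton-carrying ring, 201 FPKM), Atp6v1g1 (G1 of the peripheral stalk, 117 FPKM), Atp6v1e1 (E1 of the same stalk, 73.6 FPKM) and Atp6v1d (D of the central stalk, 71.2 FPKM). The range over libraries was wide even for these, between 8.53 and 541 FPKM for Atp6v1f, and the order was not the same in every set. The median of Atp6v1f was 382 FPKM in libraries 1 to 3, 13.5 FPKM in libraries 4 to 6 and 371 FPKM in libraries 7 to 9, and that of Atp6v1d was 203, 57.6 and 24.3 FPKM, so that Atp6v1d stood above Atp6v1f in libraries 4 to 6. The kidney-specific Atp6v1b1 had a median of 1.27 FPKM, and Atp6v0a4 had 0.409 FPKM. Atp6v0d2 and Atp6v1g3, isoforms of subunits d and G, had medians of 0 FPKM. Atp6v1a, the gene of catalytic subunit A and the only gene for that place in the pump, had a median of 0.8 FPKM, well below subunits with which its protein assembles. The gene lengths implied by the FPKM values were 3945 bases for Atp6v1a and 635 bases for Atp6v1f; whether reads were spread evenly along transcripts was not tested.

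**Figure D1:**
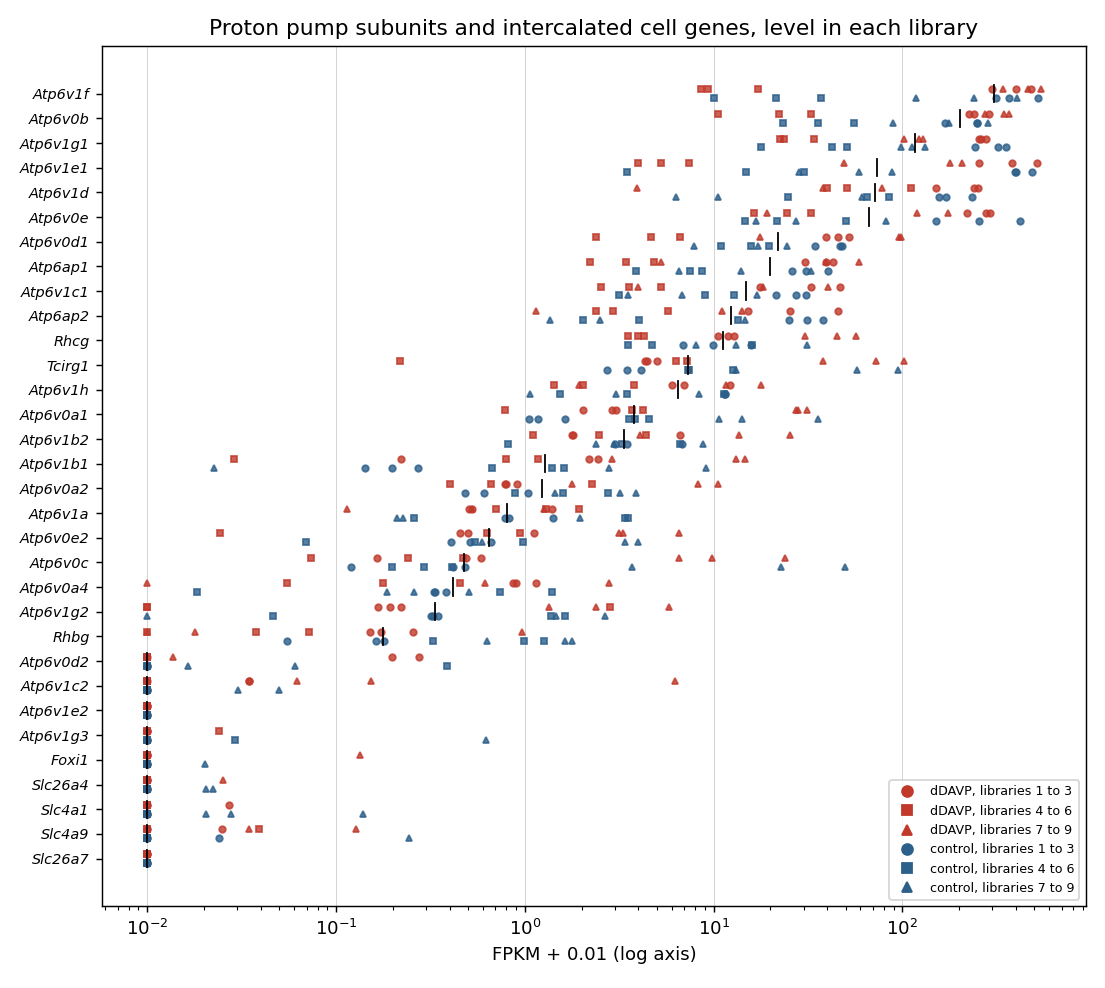
FPKM + 0.01 (log axis) of each of the 32 genes in each of the 18 libraries, with genes ordered by their median (black bar); colours give the group and symbols the replicate set. Atp6v1f, Atp6v0b and Atp6v1g1 lead the order with medians of 305, 201 and 117 FPKM, and the 9 genes at the bottom have medians of 0 FPKM.

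The summed FPKM of the 25 subunits differed more between replicate sets than between treatments. It lay between 1800 and 2160 in dDAVP and between 1550 and 2340 in control libraries 1 to 3. For libraries 4 to 6 it was 159 to 216 with dDAVP and 137 to 384 in control, and for libraries 7 to 9 it was 1140 to 1840 with dDAVP and 508 to 1150 in control. The summed FPKM of the 4 epithelial markers was also lower in libraries 4 to 6, at 375 to 688 with dDAVP and 527 to 915 in control, against 4670 to 7660 with dDAVP and 5290 to 7140 in control over the other sets. Krt18 and Krt8 led that sum, with medians of 3800 and 649 FPKM. Epcam, 1 of the 4, did not share the drop. Its unscaled counts were 6846, 14866 and 8532 in dDAVP libraries 4 to 6, against 3475, 2970 and 3761 in dDAVP libraries 1 to 3. In control they were 3765, 11139 and 9215, against 3711, 6527 and 4460. In bulk samples, fewer cells of a type and less RNA per cell cannot be told apart.

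dDAVP against control was tested with edgeR's quasi-likelihood test, and a gene was called at a Benjamini-Hochberg adjusted p under 0.05 over all genes tested. Of the 32 genes, 23 passed the filter on low counts. With all 18 libraries and no covariates, 0 of the 23 were called, beside 0.0% of all 10121 genes tested. None of the 23 had an unadjusted p under 0.05, against 218 of all genes (2.15%), and DESeq2 and limma voom with sample quality weights also called 0 of them. With the replicate set as a term, 0 of the 23 were called, beside 0.079% of all genes (8 genes, all higher with dDAVP). Again 0 of the 23 had an unadjusted p under 0.05, against 6.03% of all genes, and the other tools called 0. Aqp2 was among the 8 genes, with a log2 fold change of 4.63 (SE 0.72, edgeR adjusted p = 0.00504).

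The test within each set gave the same count of 0 called genes. Libraries 1 to 3 gave 0 calls among 22 pump and intercalated cell genes, beside 0.456% of 8991 genes (0.378% higher and 0.0779% lower with dDAVP). There, 3 of the 22 had an unadjusted p under 0.05 (Atp6v0a4, Atp6v1b1 and Atp6v0a1), against 10.5% of all genes. Of these, Atp6v1b1 passed the filter only with its dDAVP libraries. DESeq2 called 1 of the 22 and limma voom with quality weights called 3, beside 1.37% and 7.05% of all genes. Libraries 4 to 6 gave 0 of 23 beside 0.0% of 10387 genes, and 2 (Atp6v0d1 and Rhbg) had an unadjusted p under 0.05, against 4.61% of all genes. Of these, Rhbg passed the filter only through its control libraries. Libraries 7 to 9 gave 0 of 23 beside 0.0% of 11367 genes, and 0 had an unadjusted p under 0.05, against 5.19% of all genes. DESeq2 and limma voom with quality weights called 0 of the 23 in either of these sets. The interaction of set and treatment, which tests whether the response differed between sets, called 0 of 23 beside 0.0% of 10121 genes in edgeR. Atp6v0d1 alone had an unadjusted p under 0.05, against 6.63% of all genes. DESeq2 called 0 of the 23 for the interaction, and limma voom with quality weights called 2, Atp6v0d1 and Rhbg, beside 8.16% of all genes.

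In edgeR the median log2 fold change of the kidney-specific subunits lay further from 0 than that of the other core subunits in each set, but not in the same direction, and edgeR as run here called neither of the 2 that could be tested. With voom and quality weights the medians in libraries 4 to 6 were 0.04 for the kidney-specific and -0.60 for the other core subunits, so the order did not hold there. Within libraries 1 to 3 the median log2 fold change was 2.26 over the 2 kidney-specific subunits tested, 0.02 over the 17 other core subunits tested and -0.01 over all genes tested. Within libraries 4 to 6 these medians were -1.02, 0.00 and -0.03, and in libraries 7 to 9 they were 0.88, 0.35 and -0.03. With the set as a term they were 0.75, 0.08 and 0.02; the first became 1.54 with voom weights, -0.03 without libraries 1 to 3 and 1.58 without libraries 4 to 6. The standard errors of the kidney-specific fold changes were 0.33 and 0.77 in libraries 1 to 3, but 1.18 and 1.48 in libraries 4 to 6 and 1.35 and 1.68 in libraries 7 to 9. The difference between the classes was not tested. In libraries 1 to 3 Atp6v1b1, with 12, 6 and 10 control counts, passed the filter only with its dDAVP libraries. The median of 2.26 thus supports no difference. Scaling by library totals alone moved the median of all genes by -0.35 in libraries 4 to 6 and by 0.57 in libraries 7 to 9, and the class medians then became -1.28 and -0.66, and 1.62 and 0.84.

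**Figure D2:**
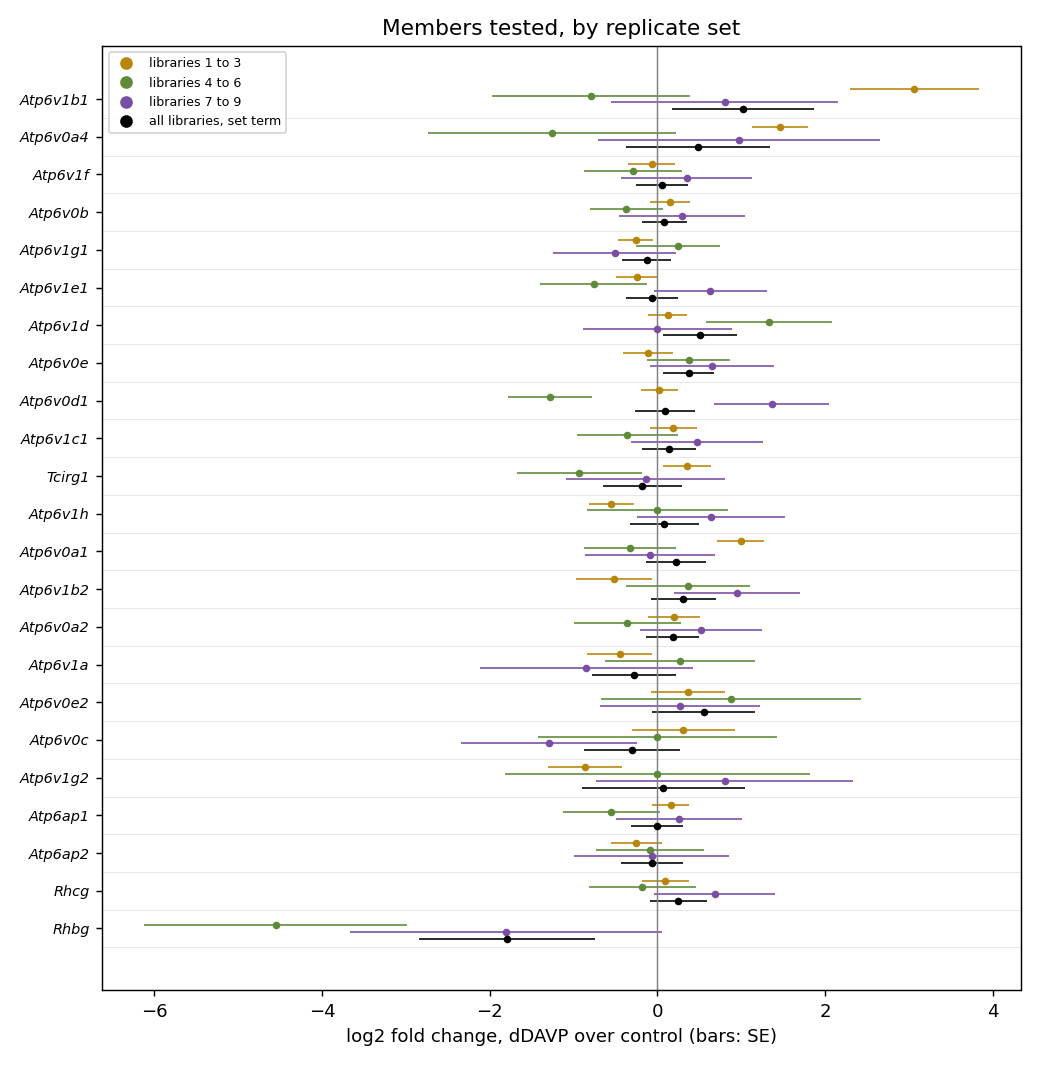
Log2 fold change of dDAVP over control with its SE (bars) for the 23 genes tested, within each replicate set and over all libraries with the set as a term. Atp6v1b1 (3.06) and Atp6v0a4 (1.46) in libraries 1 to 3 lie apart from the other subunits of that set, which lie between -0.86 and 0.99; in the other sets the bars are longer.

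Atp6v0a4 encodes a4, the isoform of the large V0 subunit that anchors the pump and forms part of its proton path in intercalated cells. The gene lies at chr6:38048483-38124586 on the reverse strand (GRCm38, GENCODE). It had normalised CPM of 2.97, 5.8 and 4.06 in dDAVP libraries 1 to 3, against 1.53, 1.32 and 1.53 in control libraries 1 to 3. All dDAVP values of that set exceeded all control values, and the means were 4.28 ± 1.43 CPM with dDAVP and 1.46 ± 0.122 CPM in control (SD, n = 3 each). The log2 fold change was 1.46 (SE 0.33), with an edgeR adjusted p of 0.107. Libraries 4 to 6 had 0.226, 1.48 and 1.79 CPM with dDAVP and 4.37, 3.7 and 0.0296 CPM in control. Libraries 7 to 9 had 1.53, 2.9 and 0 CPM with dDAVP and 0.249, 0.608 and 1.42 CPM in control. The groups overlapped in both of these sets, with log2 fold changes of -1.26 (SE 1.48) and 0.97 (SE 1.68). Neither direction held under every setting: voom with quality weights gave 0.58 and -3.59, and without dDAVP library 8 the second value was -0.05. In control libraries 4 to 6 and in dDAVP libraries 7 to 9, 1 library had at most 1 count of Atp6v0a4 while another had at least 100, which held for 2.15% and 4.63% of genes that reached 100 counts.

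The call for Atp6v0a4 in libraries 1 to 3 depended on the method: the adjusted p was 0.0191 in DESeq2, 0.00586 in limma voom with quality weights, 0.0355 in edgeR without the count filter and 0.0146 in edgeR without dDAVP library 1. Other edgeR alternatives that left out a library gave up to 0.472. Over all libraries with the set as a term its log2 fold change was 0.48 (SE 0.86, edgeR adjusted p = 0.966), and without libraries 1 to 3 it was -0.12. Exons of Atp6v0a4 share 62 bases with Tmem213 on the opposite strand and 259 bases with D630045J12Rik on the same strand, and the strand setting of the counting is not given in the sources used here. Tmem213 had 76.5, 158 and 138 CPM in dDAVP libraries 1 to 3, against 49.7, 48.6 and 57.4 CPM in control (log2 fold change 1.17, SE 0.26, edgeR adjusted p = 0.1), and its part in the Atp6v0a4 values was not tested.

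Atp6v1b1 encodes B1, the kidney and inner ear isoform of the nucleotide-binding B subunit of V1, at chr6:83742990-83758855 on the forward strand. It had, in libraries 1 to 3, 0.412, 7.25 and 6.03 CPM with dDAVP and 0.733, 0.316 and 0.45 CPM in control. Libraries dDAVP 2 and 3 stood above every control library of the set, while dDAVP 1 lay among the controls, so the groups overlapped. Markers of other nephron segments were split the same way: Umod, the uromodulin gene of the thick ascending limb, had 1, 566 and 483 counts in dDAVP libraries 1 to 3, and Slc12a3, the sodium chloride cotransporter of the distal convoluted tubule, had 0, 176 and 158. In control libraries 1 to 3 Umod had 0 counts and Slc12a3 at most 1, and the part of such markers in the Atp6v1b1 values was not tested. Means were 4.56 ± 3.65 CPM with dDAVP and 0.5 ± 0.213 CPM in control (SD, n = 3 each), a log2 fold change of 3.06 (SE 0.77) with an edgeR adjusted p of 0.161. Libraries 4 to 6 had 2.3, 2.29 and 0.12 CPM with dDAVP and 2.32, 2.54 and 2.87 CPM in control. Every dDAVP value there was below every control value, though dDAVP 4 and 5 lay just under the lowest control and the groups overlapped in FPKM. Libraries 7 to 9 had 19.3, 8.94 and 2.02 CPM with dDAVP and 0.0104, 13.1 and 4.65 CPM in control, and the groups overlapped. The log2 fold changes of these sets were -0.79 (SE 1.18) and 0.80 (SE 1.35), and with the set as a term the value was 1.02 (SE 0.85, edgeR adjusted p = 0.899).

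For libraries 1 to 3 Atp6v1b1 was called without the count filter (adjusted p = 0.00299), by limma voom with quality weights (0.0103), without dDAVP library 1 (0.000431) and in the fit that blocks on the replicate number (log2 fold change 2.64, edgeR adjusted p = 0.0328), but not by DESeq2 (0.128). Beside those counts stand 1.52%, 7.05%, 8.31% and 1.12% of all genes called under the same settings. Leaving out other libraries of the set gave adjusted p up to 0.614. With 12, 6 and 10 control counts, Atp6v1b1 passed the filter only with its dDAVP libraries, so its calls under the filter support no difference. The interaction of set and treatment had an unadjusted p of 0.358 for Atp6v0a4 and 0.136 for Atp6v1b1 (edgeR adjusted p = 0.988 and 0.912).

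**Figure D3:**
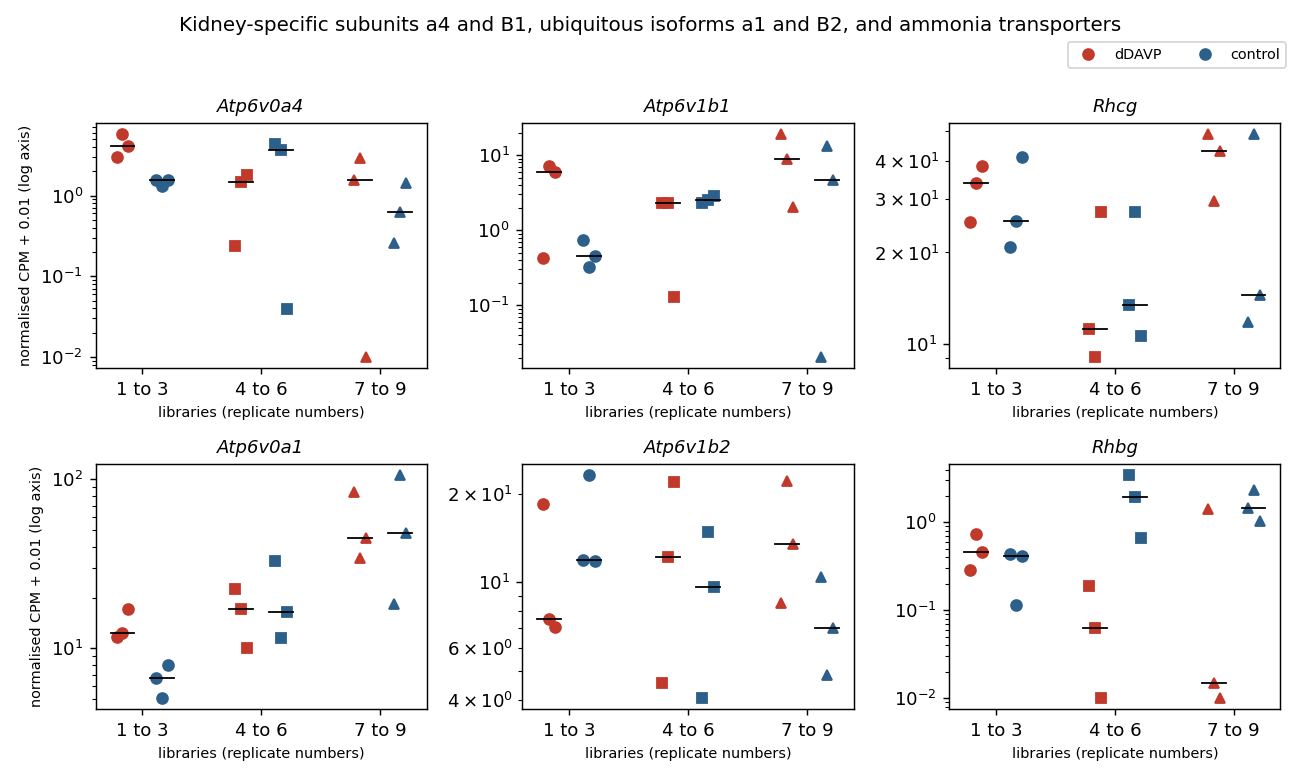
Normalised CPM + 0.01 (log axes) by library for kidney-specific Atp6v0a4 and Atp6v1b1, their ubiquitous counterparts Atp6v0a1 and Atp6v1b2, and the ammonia transporter genes Rhcg and Rhbg; dDAVP stands left of control in each replicate set and bars are medians of 3 libraries. Atp6v0a4 separates the groups in libraries 1 to 3 only, and Rhbg in libraries 4 to 6 only.

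The promoters of the 2 kidney-specific genes that passed the count filter are given below, as 250 bases before and 50 bases after the RefSeq start site (GRCm38.p6), read 5′ to 3′ on the gene's strand. Atp6v0a4 is at chr6:38124537-38124836 on the reverse strand and Atp6v1b1 is at chr6:83742767-83743066 on the forward strand. Capitals mark the only match found for the motifs searched, a forkhead core, the kind of letters that Foxi1-related factors recognise.
Atp6v0a4: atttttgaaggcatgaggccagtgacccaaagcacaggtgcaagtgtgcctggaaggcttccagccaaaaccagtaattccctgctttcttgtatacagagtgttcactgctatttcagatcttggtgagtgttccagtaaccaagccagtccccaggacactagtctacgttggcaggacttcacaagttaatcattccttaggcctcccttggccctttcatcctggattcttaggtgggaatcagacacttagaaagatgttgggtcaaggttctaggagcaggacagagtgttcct
Atp6v1b1: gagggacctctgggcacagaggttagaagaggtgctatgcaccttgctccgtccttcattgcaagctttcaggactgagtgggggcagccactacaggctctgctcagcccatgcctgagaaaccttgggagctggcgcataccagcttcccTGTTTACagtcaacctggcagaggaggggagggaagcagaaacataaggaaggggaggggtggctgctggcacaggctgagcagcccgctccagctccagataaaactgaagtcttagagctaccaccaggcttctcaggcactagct
Both strands were searched for the full cAMP response element TGACGTCA, its core TGACG, the lysosomal E-box CACGTG and the forkhead core TGTTTAC; every full element also holds that core. The Atp6v0a4 window held none of these letters. The Atp6v1b1 window held TGTTTAC, with its first base 98 bases before the start site. Promoters were found for 22 of the 32 genes, 27 promoters in all, and a gene was counted if any of its promoters held a motif. Of the 22, 0 held the full cAMP response element, 8 the core TGACG, 4 the E-box (Atp6v0b, Atp6v0d1, Atp6v1a and Atp6v0e) and 1 the forkhead core. Among all 32851 promoters of this length, 1.79% held the full element, 20.8% the core TGACG, 7.15% the E-box and 3.65% the forkhead core. These shares are per promoter and not per gene, so the counts above are not on the same unit.

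Atp6v0d2, an isoform of the V0 stalk subunit d found in kidney and osteoclasts, was below the count filter. It had 0, 12 and 17 counts in dDAVP libraries 1 to 3 and 0 counts in each of control libraries 1 to 3. In the other sets it had 1 count in dDAVP library 7 alone, against 32 in control library 5, 10 in control library 8 and 1 in control library 9. The libraries with counts were thus split between treatments. Dropping the filter, or dropping dDAVP library 1, let it be tested in libraries 1 to 3 (edgeR adjusted p = 0.0293 and 0.00725), but it then entered only through its dDAVP counts and was set against controls at 0, so these calls support no difference. The dDAVP libraries with counts, 2 and 3, are those with the thick ascending limb and distal convoluted tubule markers, whose part in the Atp6v0d2 counts was not tested. Atp6v1g3, the renal isoform of the stalk subunit G, had 73 counts in all, of which 71 were in control library 9, 1 in dDAVP library 5 and 1 in control library 4.

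Against the kidney-specific isoforms stand the ubiquitous ones in the same place of the pump. For subunit a, the share of Atp6v0a4 in the summed FPKM of the 4 isoforms was 9.9%, 13.6% and 8.89% in dDAVP libraries 1 to 3 and 5.27%, 6.95% and 5.74% in control libraries 1 to 3. Tcirg1, which encodes a3 of lysosomes and osteoclasts, held the largest share in 17 of the 18 libraries. Over libraries 4 to 6 the Atp6v0a4 share was 0.388% to 10.8% with dDAVP and 0.0461% to 9.16% in control. Over libraries 7 to 9 it was at most 3.66% with dDAVP and at most 0.677% in control. For subunit B, the Atp6v1b1 share was 3.09%, 57.9% and 54.9% in dDAVP libraries 1 to 3 and 8.09%, 1.91% and 5.15% in control libraries 1 to 3, the remainder being Atp6v1b2. It ranged between 0.771% and 41.8% with dDAVP and between 19.6% and 44.9% in control in libraries 4 to 6. Across libraries 7 to 9 it ranged between 17.5% and 76.4% with dDAVP and between 0.142% and 79.3% in control. Of the B isoforms, Atp6v1b1 held the larger share in 4 of the 18 libraries and Atp6v1b2 in 14.

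**Figure D4:**
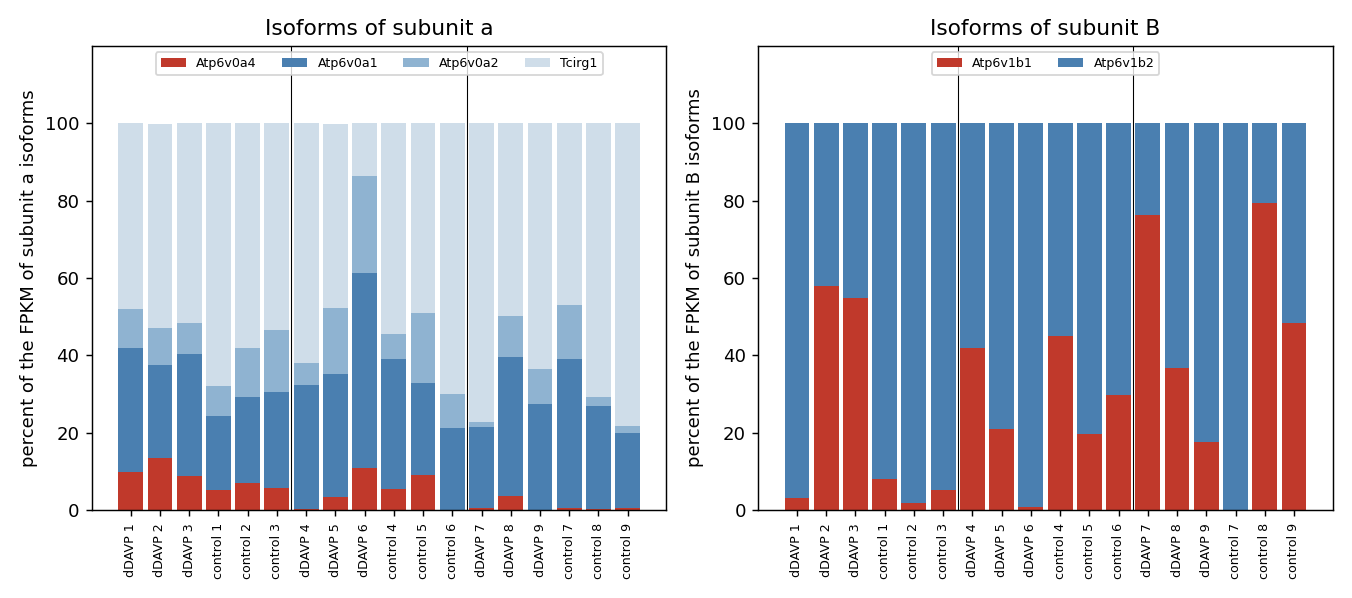
Percent of the summed FPKM of subunit a isoforms (left) and subunit B isoforms (right) held by each gene in each library, in replicate sets separated by lines with dDAVP before control. Atp6v1b1 holds 57.9% and 54.9% of subunit B in dDAVP libraries 2 and 3, 3.09% in dDAVP 1, and at most 8.09% in control libraries 1 to 3.

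Atp6v0a1 encodes a1, an a isoform of many tissues. It had 11.6, 12.3 and 17.2 CPM in dDAVP libraries 1 to 3, against 6.66, 5.06 and 8.02 CPM in control libraries 1 to 3, without overlap (log2 fold change 0.99, SE 0.28, edgeR adjusted p = 0.248). It was called by limma voom with quality weights (0.0457) and by edgeR without dDAVP library 1 (0.0423). Its groups overlapped in libraries 4 to 6 and 7 to 9, with log2 fold changes of -0.33 (SE 0.55) and -0.09 (SE 0.77). Atp6v0a2 (a2 of the Golgi and endosomes) had log2 fold changes of 0.20, -0.36 and 0.52 in the 3 sets (SE 0.31, 0.64 and 0.73), and Tcirg1 had 0.35, -0.93 and -0.14 (SE 0.29, 0.74 and 0.95). Atp6v1b2, the ubiquitous B2, had 18.4, 7.49 and 7.04 CPM in dDAVP libraries 1 to 3 and 11.9, 23.1 and 11.8 CPM in control libraries 1 to 3. Its highest dDAVP value was in library 1, the library in which Atp6v1b1 was low, and the groups overlapped. The log2 fold changes of Atp6v1b2 in the 3 sets were -0.52, 0.36 and 0.95 (SE 0.45, 0.74 and 0.75).

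Atp6v0d1, the ubiquitous d subunit, showed opposite differences in the normalised CPM of the last 2 sets. It had 85.3, 98 and 105 CPM in dDAVP libraries 1 to 3, against 80.7, 93.4 and 96.1 CPM in control libraries 1 to 3, and the groups overlapped (log2 fold change 0.02, SE 0.22). For libraries 4 to 6 it was at 16.3, 7.69 and 12.6 CPM with dDAVP and 32.3, 25.8 and 27.5 CPM in control, all dDAVP values being lower (log2 fold change -1.28, SE 0.50, edgeR adjusted p = 0.999). For libraries 7 to 9 it was at 22, 50.1 and 56 CPM with dDAVP and 17, 20.8 and 11 CPM in control, all dDAVP values being higher (log2 fold change 1.36, SE 0.69). Its edgeR adjusted p was 0.938 there. In the authors' FPKM the groups of libraries 7 to 9 overlapped, with 17.7, 98.1 and 95.6 with dDAVP and 24.4, 17.2 and 7.91 in control. The interaction of set and treatment had an unadjusted p of 0.00294 for Atp6v0d1, with an edgeR adjusted p of 0.435.

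Among isoforms of the stalks, Atp6v1g1 (G1) had log2 fold changes of -0.26, 0.24 and -0.51 in the 3 sets (SE 0.21, 0.50 and 0.73). Atp6v1g2, the G2 isoform best known from brain, had 0.32, 0.363 and 0.394 CPM in dDAVP libraries 1 to 3, against 0.672, 0.58 and 0.631 CPM in control libraries 1 to 3. Those groups did not overlap, and the log2 fold change of -0.86 (SE 0.44) had an edgeR adjusted p of 0.513. Exons of Atp6v1g2 share 144 bases with Nfkbil1 on the opposite strand. Across libraries 4 to 9 Atp6v1g2 varied between 0 and 6.61 CPM with dDAVP and between 0 and 4.44 CPM in control. Atp6v1e1 (E1) had log2 fold changes of -0.24, -0.76 and 0.63 (SE 0.25, 0.64 and 0.67), while its testis isoform Atp6v1e2 had 0 counts in all 18 libraries. Atp6v1c1 (C1, which joins the stalks to V0) had 0.19, -0.36 and 0.47 (SE 0.28, 0.60 and 0.79). Atp6v1c2 had 693 counts in all, of which 654 were in dDAVP library 8.

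Counted by overlap of normalised CPM, 2 of the 22 genes tested in libraries 1 to 3 had all dDAVP values above all control values (Atp6v0a4 and Atp6v0a1), beside 7.47% of all genes. Another 2 had all below (Atp6v1g2 and Atp6v1h, the regulatory subunit H), beside 6.93% of all genes. These 4 stand beside 14.4% of all genes in either direction. Within libraries 4 to 6, 0 of 23 were all above, beside 5.37%, and 4 were all below (Atp6v1b1, Atp6v0b, Atp6v0d1 and Rhbg), beside 4.39% below and 9.76% either way. Rhbg passed the filter there only through its control libraries. Within libraries 7 to 9, Atp6v0d1 was all above, 1 of 23 beside 4.56%, and 0 of 23 were all below, beside 4.43% below and 8.99% either way. Slc4a1, below the filter, had 0 counts in dDAVP libraries 7 to 9 and 2, 46 and 5 in control, of which the 2 counts are within what a library at 0 could have held. With all 18 libraries 0 of 23 were free of overlap, beside 0.0% of all genes. None of the 32 genes was free of overlap in the same direction in 2 sets. The overlap depended on the scale. In FPKM the groups overlapped for Atp6v1h in libraries 1 to 3, Atp6v1b1 and Atp6v0b in libraries 4 to 6 and Atp6v0d1 in libraries 7 to 9. Tcirg1 in turn was free of overlap in FPKM, with dDAVP above in libraries 1 to 3 and below in libraries 4 to 6. So was Atp6v1c2, below the filter, in libraries 7 to 9, at 0.0521 to 6.22 FPKM with dDAVP and at most 0.0402 FPKM in control.

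The other core subunits were also counted by sector. Within libraries 1 to 3, 2 of the 9 tested V1 subunits had a positive log2 fold change (median -0.26, range -0.86 to 0.19), and 7 of the 8 tested V0 subunits had one (median 0.25, range -0.11 to 0.99). Atp6v0a1, at 0.99, was the highest of the V0 group. Over all genes 49.4% were positive there. For libraries 4 to 6, 5 of 9 V1 and 2 of 8 V0 subunits were positive, beside 48.1% of all genes, and in libraries 7 to 9, 7 of 9 and 5 of 8 were, beside 48.9%. With the set as a term, 12 of the 17 other core subunits tested were positive, beside 52.2% of all genes, and all 17 had log2 fold changes between -0.30 and 0.55 with SE between 0.27 and 0.97.

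Within libraries 7 to 9 several subunits varied widely between libraries of the same treatment. Atp6v0c, which encodes the ring subunit c, had 21.2, 2.37 and 4.1 CPM with dDAVP and 1.82, 42.6 and 22.6 CPM in control. Tcirg1 had 221, 33.8 and 73.8 CPM with dDAVP and 16, 199 and 140 CPM in control. Atp6v1d ran the other way, with 4.23, 34.7 and 19.5 CPM with dDAVP and 37.3, 6.65 and 12.8 CPM in control. For these 3 genes dDAVP 7 and control 7 thus lay on opposite sides of the other libraries of their group in that set. The split was not confined to them. Atp6v1b1 had it too (values above), as did Atp6v1g1 (102, 44.6 and 40.5 CPM with dDAVP and 46.1, 107 and 106 CPM in control). Atp6v0a1 also had it, with 84.6, 34.1 and 44.9 CPM with dDAVP and 18.3, 106 and 48.4 CPM in control. The same held for Atp6v0b, Atp6v1a, Atp6v1b2, Atp6v1c1, Atp6v1h, Atp6v1g2, Atp6v0e, Atp6ap1, Atp6ap2 and Rhcg, so most of the tested genes had this split. The remaining tested genes, Atp6v0a4 and Atp6v0d1 among them, did not, and the cause was not tested. Without libraries 7 to 9 the fit with the set as a term gave log2 fold changes of 0.22 for Atp6v0a4 and 1.13 for Atp6v1b1 (edgeR adjusted p = 0.987 and 0.927).

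Of the accessory proteins, Atp6ap1 (Ac45, which assists assembly and targeting of the pump) had log2 fold changes of 0.16, -0.55 and 0.26 in the 3 sets (SE 0.22, 0.58 and 0.75). Atp6ap2 (the prorenin receptor) had -0.25, -0.09 and -0.07 (SE 0.30, 0.64 and 0.92). With the set as a term they were 0.00 (SE 0.31) and -0.07 (SE 0.37). Atp6v0c, Atp6v1g1, Atp6v1f and Atp6ap2 have near-identical copies elsewhere in the genome (97.5% to 99.8% identity over 357 to 465 bases), so their counts are uncertain. Shorter stretches of Tcirg1, Atp6v0e2, Atp6v1h and Atp6v1b2 match 34, 9, 3 and 1 other genes, the longest at up to 95.8% identity over 100 to 191 bases, which also bears on the Tcirg1 and Atp6v1b2 shares above.

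The intercalated cell exchangers and Foxi1 were at or near 0. Foxi1, the forkhead factor that mouse intercalated cells need, had 31 counts in dDAVP library 7, 1 in control library 7 and 0 in all other libraries. Slc4a1 (the basolateral exchanger AE1 of type A cells) had 55 counts in 4 libraries, of which 46 were in control library 8. Slc26a4 (pendrin of type B cells) had 10 counts in 3 libraries, Slc4a9 (AE4 of type B cells) had 104 counts in 6 libraries, and Slc26a7, another anion exchanger of type A cells, had 0 counts in all 18. Among libraries 1 to 3, where Atp6v0a4 and Atp6v1b1 had their highest fold changes relative to the error, the summed FPKM of the 14 intercalated cell markers was 11.4 to 18.7 with dDAVP and 6.21 to 9.21 in control. There, 4 of the 14 markers were at 0 in all 6 libraries, Foxi1 and Slc26a4 among them. In that set 6 of the 14 passed the filter (Atp6v0a4, Atp6v1b1, Car2, Car12, Car15 and Aqp6). All 6 had positive log2 fold changes (median 2.57), beside 49.4% of all genes, and 5 had an unadjusted p under 0.05, beside 10.5%. Car15 and Aqp6 had 3, 0 and 3 and 2, 3 and 10 control counts there, and passed the filter only through their dDAVP libraries. Atp6v1b1 and Car12, with 12, 6 and 10 and 7, 12 and 14, would not have passed on their control libraries alone. The positive signs of these genes, any call of them and the median of 2.57 thus support no difference. Of the 6 tested, edgeR called 2 (Car12 and Car15), DESeq2 3 and limma voom with quality weights 5, beside 0.456%, 1.37% and 7.05% of all genes. In libraries 4 to 6, 2 of 6 were positive with a median of -0.07, beside 48.1% of all genes. In libraries 7 to 9, 5 of 6 were positive with a median of 0.92, beside 48.9% of all genes. In either of these sets edgeR called 0, beside 0.0% of all genes.

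The ammonia transporters were the intercalated cell genes that were measured. Rhcg, the apical and basolateral ammonia channel shared with principal cells, had 25.2, 33.8 and 38.5 CPM in dDAVP libraries 1 to 3, against 20.9, 25.4 and 41.1 CPM in control libraries 1 to 3. The groups overlapped in this and the other sets, with log2 fold changes of 0.09 (SE 0.28), -0.18 (SE 0.64) and 0.68 (SE 0.72). Over all libraries Rhcg averaged 29.6 ± 13.4 CPM with dDAVP and 23.7 ± 13.5 CPM in control (SD, n = 9 each), a log2 fold change of 0.32 (SE 0.42, edgeR adjusted p = 1.0).

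Rhbg, the basolateral relative of Rhcg, was scarcer. It had 0.275, 0.725 and 0.451 CPM in dDAVP libraries 1 to 3 and 0.428, 0.105 and 0.405 CPM in control, which overlapped and lay below the count filter. Libraries 4 to 6 had 0.181, 0.0538 and 0 CPM with dDAVP and 3.45, 1.96 and 0.65 CPM in control, all dDAVP values being lower. Rhbg counts there were 4, 2 and 0 with dDAVP and 52, 81 and 22 in control. It thus passed the filter only through its control libraries, and its values there support no difference. Libraries 7 to 9 had 1.4, 0.00475 and 0 CPM with dDAVP and 1.46, 2.33 and 1.02 CPM in control, where dDAVP 7 lay among the controls. The log2 fold changes were -4.55 (SE 1.57, edgeR adjusted p = 0.999) in libraries 4 to 6 and -1.81 (SE 1.86) in libraries 7 to 9. Without dDAVP library 7 the second value was -8.90 (edgeR adjusted p = 0.076), and without the other libraries of the set it lay between -2.02 and -1.22. Over all libraries without covariates it was -1.91 (SE 0.96, unadjusted p = 0.0596, edgeR adjusted p = 1.0). In dDAVP libraries 7 to 9, Rhbg reached 194 counts in library 7 and had 1 and 0 in the others, so it needed its control libraries to pass the filter there too.

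Genes of related processes were read for comparison. Of 31 other genes of acid-base transport and intercalated cells, 14 were tested in libraries 1 to 3. Of the 14, 2 were called higher with dDAVP there and 12 were not called, beside 0.378% of all genes called higher. The list shares genes with the intercalated cell markers, and the 2, Car12 and Car15, are the same calls as given there. Car12, a membrane-bound carbonic anhydrase, averaged 4.8 ± 1.12 CPM with dDAVP and 0.564 ± 0.118 CPM in control (SD, n = 3 each; log2 fold change 2.99, SE 0.36, edgeR adjusted p = 0.00211). Its control counts of 7, 12 and 14 would not have passed the filter without its dDAVP libraries, so this call supports no difference. Car15, a carbonic anhydrase attached to the outer membrane, averaged 3.99 ± 2.32 CPM with dDAVP and 0.106 ± 0.095 CPM in control (log2 fold change 5.06, SE 0.71, edgeR adjusted p = 0.0079). Its counts were 29, 84 and 99 in dDAVP libraries 1 to 3 and 3, 0 and 3 in control. Car15 thus passed the filter only through its dDAVP libraries, and its call supports no difference. The log2 fold changes of Car12 and Car15 in libraries 4 to 6 were 2.18 (SE 1.05) and -0.02 (SE 1.33). In libraries 7 to 9 they were -1.17 (SE 1.38) and 2.03 (SE 1.38), none called. DESeq2 also called 2 genes of this list in libraries 1 to 3, and limma voom with quality weights called 3, beside 1.37% and 7.05% of all genes. In all 5 comparisons of dDAVP with control, edgeR called 0 of 9 or 10 tested V-ATPase assembly and regulator genes, 0 of 23 or 24 lysosome and TFEB-family genes and 0 of 11 or 12 Ragulator and mTORC1 genes. Within libraries 1 to 3, unadjusted p was under 0.05 for 2 of 9, 4 of 24 and 1 of 11 genes of these lists, beside 10.5% of all genes. DESeq2 called 0 of each list there, beside 1.37% of all genes. With voom and quality weights 2, 3 and 0 were called, beside 7.05% of all genes. Their median log2 fold changes there were -0.13, 0.13 and 0.27, beside -0.01 over all genes.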

How the data were processed

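RNA of mpkCCD cells (9 dDAVP and 9 control libraries) was sequenced as single-end reads of 50 bp, starting with 20 ng of RNA per the labels' protocols. Those protocols mention library building both with an ultralow-input kit and after a published single-cell method, without assigning them to libraries. The submitters' processing notes name STAR 2.4.0.1, HTSeq and SAMtools, and mm10 as the mouse build; the annotation release and strand setting are not given in the sources used here. The authors deposited raw counts per gene (whole numbers, 24111 genes). The authors also deposited FPKM values (24076 genes), and count over FPKM, scaled by library total, varied by a median of 0.019%. Spreadsheet dates had replaced 27 gene symbols, which were kept in the fits without a name.

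Groups came from the treatment labels. The 32 genes, the gene lists, the tests and their alternatives were chosen with earlier results of these data known. Tests were edgeR 4.0.16 quasi-likelihood fits of the counts (TMM, filterByExpr, two-sided, Benjamini-Hochberg over all genes tested, threshold 0.05): all libraries without covariates, with the replicate set as a term, within each set, and for the interaction. SE is the log2 fold change divided by the square root of F. Normalised CPM are counts over the TMM-scaled total of all 18 libraries, and levels between genes are FPKM. Alternatives were other scalings, filters and tools (DESeq2 1.42.0, limma 3.58.1), log2 FPKM, the replicate block, and each library or set left out. The fits were tested on simulated data. No pair of libraries within a group looked duplicated (lowest chi-square per degree of freedom 71.6). Further tools were R 4.3.3, Python 3.11.15, pandas 2.3.3 and matplotlib 3.10.9. Positions are from GENCODE on GRCm38, and promoters and motif counts from RefSeq (GRCm38.p6). Floors and intervals cover counting error only, since reads carry no molecular identifiers.

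The rule for naming genes gave values in every set for the kidney-specific subunits, the isoforms sharing their place and the intercalated cell genes, and named up to 5 others by highest level. Atp6v0b, Atp6v0c, Atp6v1a, Atp6v1h, Atp6v0e, Tmem213, D630045J12Rik, Nfkbil1, Umod and Slc12a3 were named after their values were seen. For pairing, deviations from group means of libraries with the same number correlated at r = 0.88, 0.78, 0.81, 0.69, 0.53, 0.47, 0.33, 0.51 and 0.40 across genes for numbers 1 to 9. After removal of set means these r lay between -0.60 and 0.31, so a block for the number was kept as an alternative.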

Additional observations from a re-analysis of the deposited data

Results flagged for a closer look

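Atp6v0c, the ring subunit c, had 21.2 normalised CPM in dDAVP library 7, and the nearest of the other 8 dDAVP libraries had 4.1 CPM. The gap was 0.501 of the range of the 9 dDAVP libraries, above the 95% critical value of Dixon's test for 9 values. It was 1 of 46 group values tested over the pump and intercalated cell genes, against 6.34% of 20242 such values over all genes tested, and chance gives about 1 in 20 for libraries of 1 population. These 9 libraries come from 3 sets that differ in level: Atp6v0c lay between 0.183 and 1.03 CPM in dDAVP libraries 1 to 6, and control library 8 of the same set as dDAVP 7 had 42.6 CPM. The count of Atp6v0c is uncertain because a near-identical copy of it exists (99.8% identity over 465 bases).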

How the results depend on the processing

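No pump or intercalated cell gene was called by edgeR over all libraries, in libraries 4 to 6 or in libraries 7 to 9 under any alternative run. The number called in libraries 1 to 3 was 3 without the count filter, 1 with DESeq2, 3 with limma voom and quality weights, 1 with the replicate block and 0 to 4 with a library left out, and for the interaction 2 with voom weights and 0 to 1 with a library left out. Of 2380 fold changes of these genes under alternatives, 329 had the other sign, none of them called. The cause of these differences was not tested. The count of 3 without the filter and the highest count with a library left out include Atp6v0d2, which had 0 control counts there. The 9 genes below the filter had too few counts to be tested over all libraries.

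Calls over all genes without covariates numbered 12 with DESeq2, 11 with voom weights and 2 with each FPKM setting, against 0 in edgeR. With the set term they numbered 5 by library totals, 31 with DESeq2, 118 with voom weights, 4, 3 and 3 on log2(FPKM + 1), log2(FPKM + 0.1) and unfiltered log2(FPKM + 1), and 0 without libraries 1 to 3 or 4 to 6, against 8. Within libraries 1 to 3 they numbered 207 without the filter, 123 with DESeq2, 634 with voom weights and 14 on unfiltered FPKM, against 41. Libraries 4 to 6 gave 1 by totals, 1 without the filter, 29 with DESeq2 and 2 with voom weights, against 0. Libraries 7 to 9 gave 7 by totals, 30 without the filter, 94 with DESeq2, 220 with voom weights and 2 on each filtered FPKM scale, against 0. The interaction gave 35 without the filter, 104 with DESeq2 and 826 with voom weights, against 0.

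The median log2 fold change of kidney-specific subunits became 1.78 with voom weights over all libraries without covariates. It became 1.46 in libraries 1 to 3 with a strict filter, which left Atp6v0a4 alone, and 0.77 on unfiltered log2(FPKM + 1). It became -1.17 in libraries 7 to 9 with voom weights and 2.54 on log2(FPKM + 0.1), where only Atp6v1b1 passed. That of other core subunits in libraries 4 to 6 became -0.66 by totals and -0.81 on log2(FPKM + 0.1).

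With 1 library left out, calls ranged between 0 and 1 without covariates, 4 and 9 with the set term, 13 and 774 in libraries 1 to 3 (774 without dDAVP 1), 0 and 2 in libraries 4 to 6, 0 and 98 in libraries 7 to 9, and 0 and 45 for the interaction. The kidney-specific median ranged between 0.44 and 0.99, 0.51 and 0.95, 1.88 and 2.63, -1.30 and -0.79, and 0.40 and 1.43 in these 5 comparisons, and that of other core subunits between -0.05 and 0.27, -0.01 and 0.20, -0.07 and 0.13, -0.34 and -0.03, and 0.08 and 0.62. Members called ranged between 0 and 0 outside libraries 1 to 3 and the interaction.

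With the replicate number as a block, pairing gave 1 call over all libraries, 101 in libraries 1 to 3, 0 in libraries 4 to 6 and 3 in libraries 7 to 9. The kidney-specific medians under the block were 0.69, 2.04, -1.13 and 0.79, those of other core subunits 0.03, 0.03, -0.33 and 0.35, and it changed no call of the pump and intercalated cell genes other than that of Atp6v1b1 in libraries 1 to 3.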
